A study of Mus musculus with 116 samples.

Results

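The 10 genes described here, Wnt1, Wnt3, Wnt3a, Wnt5a, Wnt6, Wnt7a, Wnt7b, Wnt8b, Wnt9a and Wnt10a, encode secreted WNT ligands. They were chosen by name, with no cut on their values, from the 19 WNT ligand genes among the 53379 genes counted. Earlier results of these data were known when they were chosen. Levels were read in green cells sorted from mouse neocortex, in the 55 of 68 green libraries (of 116 libraries in all) with at least 1000000 uniquely aligned reads that made up at least 60% of all reads. In MADM (mosaic analysis with double markers), Cre-driven recombination between homologous chromosomes leaves sparse daughter cells that are green or red, and yellow cells. Cre came from the Emx1 locus, which is active in the dorsal telencephalic lineage. The question was how the ligands stood in cells without Eed, a core subunit of the Polycomb repressive complex PRC2, when such cells were sparse and when the whole tissue lacked the gene.

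The 3 paradigms below were compared. In control-MADM (MADM7-GT/TG;Emx1-cre) every cell was Eed+/+. In Eed-MADM (MADM7-GT/TG,Eed;Emx1-cre) the green cells were Eed-/-, the red cells Eed+/+ and the yellow cells Eed+/-, so that sparse mutant cells lay in heterozygous tissue. In cKO-Eed-MADM (MADM7-GT,Eed/TG,Eed;Emx1-cre) green, red and yellow cells of the Emx1 lineage were all Eed-/-. The labels give the strain as CD1, the methods a mixed background. Each library was made from 2 to 3 pooled cortices, both sexes were used, and the litter and sex behind a library are not given. Tissue was taken at birth (P0) and at E12.5, E13.5 and E16.5, which the labels write as E12, E13 and E16. The E12.5 green libraries used were 5 of control-MADM, 8 of the Eed-MADM mosaic and 4 of the cKO-Eed-MADM knockout. In that order, E13.5 had 2, 2 and 4 libraries, E16.5 had 3, 5 and 4, and P0 had 5, 9 and 4. Cells at E12.5 were sorted into another buffer than at the later ages, so that collection and the E12.5 age cannot be told apart. Green and red cells of every paradigm are uniparental for chromosome 7, on which no member lies.

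WNT proteins carry a fatty acyl chain that the acyltransferase Porcn attaches to a conserved serine. The carrier Wls takes the acylated protein to the cell surface, where the chain docks into Frizzled receptors, and the extracellular enzyme Notum removes it. Ligands such as Wnt1, Wnt3 and Wnt3a are known mainly for stabilising beta-catenin, whereas Wnt5a is best known for signalling through Ror receptors and planar polarity. In the developing forebrain the cortical hem, a strip at the medial edge of the cortex, is a source of Wnt3a, Wnt8b and other ligands, and Wnt7a and Wnt7b are the ligands of the cortical wall itself.

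The stretch that codes for the acylated serine is shared, with differences, by all 10 genes. It is shown here, since secretion and receptor binding rest on it, for each member as 24 coding bases (GENCODE transcripts, GRCm38), 5′ to 3′ on the coding strand, with the serine codon in capitals.
Wnt7b: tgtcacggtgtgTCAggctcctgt
Wnt7a: tgccatggtgtgTCAggctcctgt
Wnt5a: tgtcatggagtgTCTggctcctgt
Wnt3: tgccacgggttgTCCggcagctgc
Wnt9a: tgccatggtgtgTCTggctcctgc
Wnt10a: tgccacggcaccTCAggcagctgc
Wnt8b: tgccacggtgtgTCCggcagctgc
Wnt3a: tgccacgggctaTCTggcagctgt
Wnt6: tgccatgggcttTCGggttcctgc
Wnt1: tgccacgggatgTCCggctcctgc
The Wnt7b stretch lies at chr15:85537812-85537835 on the minus strand, in exon 4 of 4, and the Wnt5a stretch at chr14:28522515-28522538 on the plus strand, in exon 5 of 5. For Wnt3 it is chr11:103812314-103812337 on the plus strand, in exon 4 of 5. Of the 24 bases, Wnt7a shared 22 with Wnt7b and Wnt5a shared 21, while Wnt6 and Wnt10a shared 16 each. The serine itself is written with 4 different codons among the 10 genes.

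The members lie on 6 chromosomes in mm10, some of them beside another ligand. Wnt6 (chromosome 1, 74771892 to 74785322) and Wnt10a (74791516 to 74804179) follow one another on the plus strand with 6.19 kb between them. On chromosome 11, Wnt3a (59248033 to 59290752, minus strand) and Wnt9a (59306928 to 59333552, plus strand) point away from each other across 16.2 kb, and Wnt3 (103774150 to 103817957) lies 24.3 kb from Wnt9b, which is no member. The other genes are Wnt5a (chromosome 14, 28504750 to 28527448), Wnt7a (chromosome 6, 91363981 to 91411363), Wnt7b (chromosome 15, 85535437 to 85582473), Wnt1 (chromosome 15, 98789857 to 98793837) and Wnt8b (chromosome 19, 44493472 to 44514273). Wnt5a, Wnt6 and Wnt7b overlap an annotated gene on the opposite strand (Gm2670, Gm29539 and AU022754), and the counts used do not separate strands.

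Promoter sequence was at hand for 7 of the 10 members (RefSeq, GRCm38.p6). CpG-dense promoters are known as the usual sites of PRC2, so 3 promoters that span the members' range of CpG density are shown, each as the 250 bases before the start, 5′ to 3′ on the gene's strand, with CpG dinucleotides in capitals.
Wnt9a: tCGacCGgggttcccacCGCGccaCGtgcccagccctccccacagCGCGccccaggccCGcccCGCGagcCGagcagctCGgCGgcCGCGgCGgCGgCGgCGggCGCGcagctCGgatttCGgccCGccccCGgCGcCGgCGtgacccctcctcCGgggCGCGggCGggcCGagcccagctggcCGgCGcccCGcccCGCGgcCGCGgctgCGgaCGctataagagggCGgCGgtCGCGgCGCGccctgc
Wnt3: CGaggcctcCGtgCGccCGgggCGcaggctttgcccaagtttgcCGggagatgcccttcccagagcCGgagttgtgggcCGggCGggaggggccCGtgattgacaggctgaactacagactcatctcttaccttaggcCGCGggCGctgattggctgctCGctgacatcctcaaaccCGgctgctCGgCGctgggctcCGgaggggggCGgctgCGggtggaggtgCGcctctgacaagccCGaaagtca
Wnt8b: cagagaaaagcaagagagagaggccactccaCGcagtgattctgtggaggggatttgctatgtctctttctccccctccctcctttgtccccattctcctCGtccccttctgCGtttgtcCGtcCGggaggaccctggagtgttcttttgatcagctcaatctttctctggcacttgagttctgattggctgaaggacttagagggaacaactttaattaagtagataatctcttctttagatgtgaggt
The Wnt9a window (chr11:59306680-59306929, plus strand) held 48 CpGs, more than 99.8% of the 32851 promoters of the same length, whose median was 6. The Wnt3 window (chr11:103773925-103774174, plus strand) held 22. Wnt8b was the member with fewest, with 5 in its window (chr19:44493222-44493471, plus strand). The other 4 windows, those of Wnt3a, Wnt7a, Wnt6 and Wnt1, held 41, 34, 28 and 23. The TCF/LEF core CTTTGA or CTTTGT, read on both strands, was found in the Wnt8b window only among the 7, against 27.6% of all promoters. No chromatin was measured, so the windows are a description of sequence and no site was tested.

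The libraries held 865832 to 2359317 reads on genes at E12.5, and 2784557 to 7249098 at the later ages. Levels are counts per 1000000 reads (CPM) scaled by TMM within an age, so that levels of different ages are set side by side only as a description. At all 4 ages every cKO-Eed-MADM library held less Eed RNA than every control-MADM library (at P0, 9.17 to 16.1 against 26.9 to 33.5 CPM, and 11.4 to 19.6 in Eed-MADM). The Eed-MADM libraries lay below the controls from E13.5 on. At E12.5 they held 31.9 to 88.9 CPM and overlapped with control-MADM at 81.1 to 159. The count covers the whole gene, also its undeleted exons. The paper also left out libraries for reads in the deleted Eed region or low correlation with replicates, whereas only the read limits were applied here. Dorsal telencephalon markers were present in every group, with all 12 genes read. The E12.5 libraries stood apart, with summed red blood cell markers of 5.82 to 94800 CPM and summed meningeal and fibroblast markers of 38.1 to 2650 CPM, against at most 589 and 445 at any later age. Within an age, differences were tested with edgeR's quasi-likelihood test across all genes above a minimum mean count (1 at E12.5, 10 at the later ages), and a gene is called when its Benjamini-Hochberg adjusted p over all genes tested was under 0.05.

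**Figure D1:**
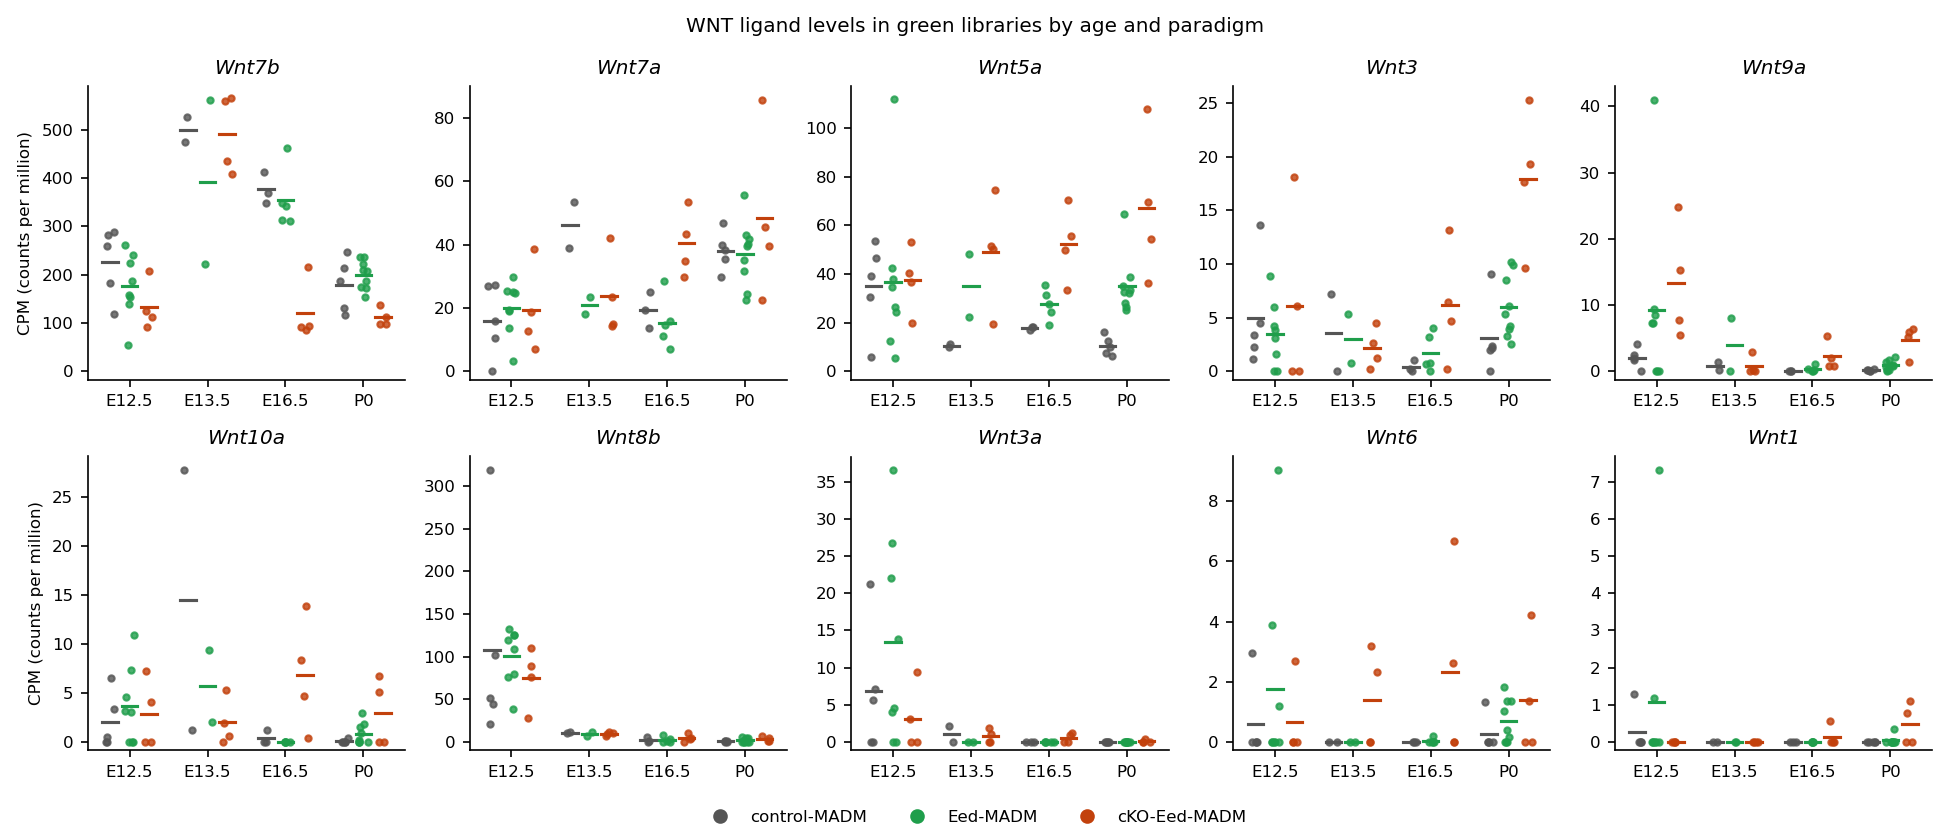
Levels of the 10 WNT ligand genes in the 55 green libraries (y axes, CPM scaled within each age, on a separate scale for each gene) by age (x axes) and paradigm (colors); each point is 1 library and each bar a group mean. Wnt7b was between 85.7 and 216 CPM in the 4 cKO-Eed-MADM libraries at E16.5 and between 348 and 413 in the 3 control-MADM libraries, and Wnt5a at P0 was between 36.2 and 108 against 6.45 to 16.3.

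Per kb of exon, Wnt7b was the leading ligand in the control-MADM cortex at every age, and the cells of the global knockout held a more mixed set from E16.5. Each library's summed CPM per kb over the 19 ligands was taken as 100%. In control-MADM, Wnt7b made up 47.7% ± 12.3 (SD, n = 5) of it at E12.5 and 77.3% ± 5.3 (SD, n = 2) at E13.5. Its share was 84.9% ± 0.542 (SD, n = 3) at E16.5 and 59.0% ± 5.76 (SD, n = 5) at birth. Wnt7a came next from E13.5 on, with 20.1% ± 3.32 (SD, n = 5) at P0, where Wnt5b, which is no member, held 15.2% ± 2.84 (SD, n = 5). The Eed-MADM cells, the mosaic, had a Wnt7b share of 83.8% ± 1.64 (SD, n = 5) at E16.5 and at P0 of 58.7% ± 5.82 (SD, n = 9), which is within 1 SD of the control-MADM mean at P0. The global knockout, cKO-Eed-MADM, had 42.6% ± 13.5 (SD, n = 4) at E16.5 and 34.8% ± 5.01 (SD, n = 4) at P0, and its range at each of these ages lay outside that of control-MADM. Wnt5a reached 12.3% ± 5.02 (SD, n = 4) at E16.5 and 12.3% ± 2.15 (SD, n = 4) at P0 there, against 2.52% ± 0.163 (SD, n = 3) and 2.28% ± 0.98 (SD, n = 5) in control-MADM. The total over the 19 ligands was 56.1 ± 9.96 CPM per kb (SD, n = 4) in the E16.5 knockout and 90.6 ± 8.42 (SD, n = 3) in control-MADM, and at P0 67.9 ± 23.3 (SD, n = 4) and 61.1 ± 14.4 (SD, n = 5). These shares are a description of the members together and carry no test.

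**Figure D2:**
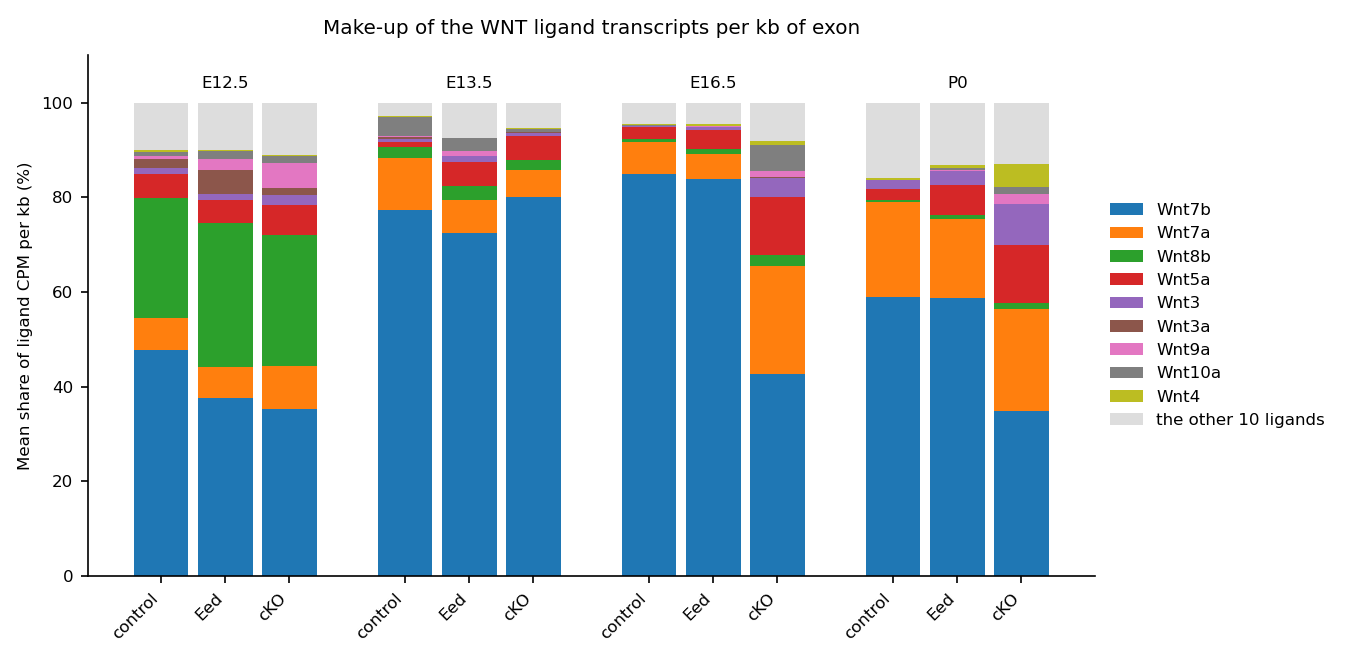
Mean share of each WNT ligand in the summed CPM per kb of exon over 19 ligands (y axis, %) by age and paradigm (x axis; Eed stands for Eed-MADM and cKO for cKO-Eed-MADM), with the 10 ligands not drawn singly in grey. At E16.5 Wnt7b held 84.9% in control-MADM but 42.6% in cKO-Eed-MADM, and Wnt8b held a mean of 25.3% to 30.6% at E12.5 and of 0.325% to 2.95% later.

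Counts of ligands called differed by age and paradigm. At E12.5, where all 10 members were tested, edgeR called 0 in cKO-Eed-MADM against control-MADM, in Eed-MADM against control-MADM and in cKO-Eed-MADM against Eed-MADM, with 0.0% of the 18100 genes called in each; 2, 0 and 1 members had an unadjusted p under 0.05, and DESeq2 called 0 as well. At E13.5, with 6 members tested, edgeR called 0 members in each comparison. The background was 0.0372% of 13448 genes called for cKO-Eed-MADM against control-MADM, 0.0% for Eed-MADM against control-MADM and 0.0223% for cKO-Eed-MADM against Eed-MADM. Unadjusted p was under 0.05 for 2, 1 and 0 members, and DESeq2 called 1, Wnt5a, in the first of these comparisons, where it called 289 of the 13448 genes. The 5 genes called there by edgeR became 0 without control-MADM replicate 1 or cKO-Eed-MADM replicate 1, 2 or 5, and 407 without control-MADM replicate 3, the other control library.

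At E16.5, 6 members were tested. In cKO-Eed-MADM against control-MADM 2 were called, where 8.58% of 13359 genes were: Wnt5a rose (6.16% of genes were called higher) and Wnt7b fell (2.42% were called lower). In Eed-MADM against control-MADM 0 were called (2 at an unadjusted p under 0.05, 0 by DESeq2), with a background of 0.255%. In cKO-Eed-MADM against Eed-MADM, 4 were called (7.04% of genes), with Wnt10a, Wnt7a and Wnt5a higher and Wnt7b lower in cKO-Eed-MADM. Wnt10a and Wnt3 passed the count minimum at E16.5 only through their knockout reads. These numbered 147 and 132, against 6 and 9 in control-MADM and 0 and 44 in Eed-MADM. The filter thus favored rises of both in the E16.5 counts and in the median below. At P0 only 4 members passed the count minimum. Of these, 3 were called in cKO-Eed-MADM against control-MADM, where 24.2% of 14161 genes were: Wnt5a and Wnt3 rose (14.2% of genes were called higher) and Wnt7b fell (10.0% were called lower). In Eed-MADM against control-MADM, 1 was called, Wnt5a, with a background of 1.75%. In cKO-Eed-MADM against Eed-MADM 3 were called, Wnt5a, Wnt3 and Wnt7b, with a background of 19.5%. Both comparisons with control-MADM share their control samples. The median log2 fold change of the members tested in cKO-Eed-MADM against control-MADM was 1.31 at E16.5 and 1.46 at P0, beside 0.0 and -0.01 over all genes; with 4 to 6 genes of opposite directions this is a description only.

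**Figure D3:**
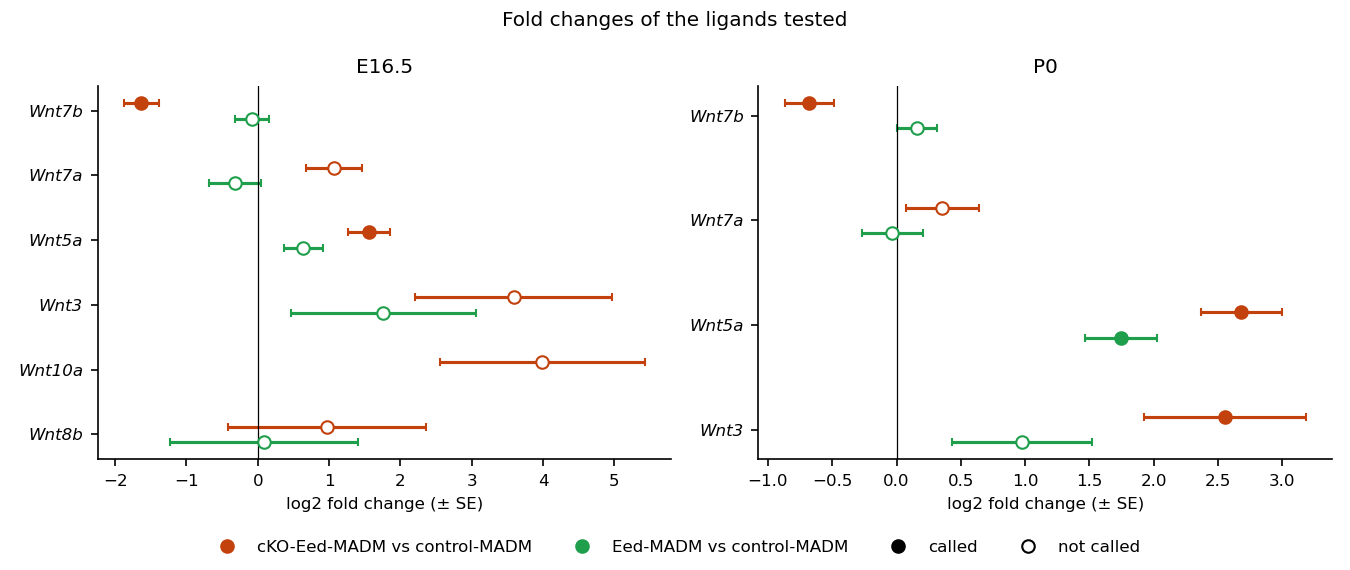
Log2 fold changes with their SE (x axes) of the members tested (y axes) at E16.5 and P0 in the global knockout and in the mosaic, each against control-MADM; filled points were called by edgeR and open points were not, and Wnt10a in Eed-MADM at E16.5, where no library held a read, is not drawn. Wnt7b fell by 1.63 at E16.5 and by 0.68 at P0 in cKO-Eed-MADM, while Wnt5a rose by 1.56 and 2.68.

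Wnt7b, the most abundant ligand of the cortical wall, was lower in the cells of the global knockout than in the controls and than in the sparse mutant cells, and was not called in the latter against controls. At E16.5 the 3 control-MADM libraries held 369, 348 and 413 CPM, and the 5 Eed-MADM libraries 348, 312, 342, 314 and 462 CPM. The 4 cKO-Eed-MADM libraries held 216, 85.7, 93.6 and 91.6 CPM. All 4 lay below every library of both other groups, and replicate 1 stood apart from the rest. The mean was 3.1-fold lower than in control-MADM, with a log2 fold change of -1.63 ± 0.25 (SE; edgeR adjusted p = 0.000218). Against Eed-MADM, whose green cells were Eed-/- too, it was -1.55 ± 0.23 (SE; edgeR adjusted p = 0.000147). Eed-MADM itself differed from control-MADM by -0.08 ± 0.23 (SE; adjusted p = 0.946).

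At P0 the Wnt7b levels of the groups lay closer. The control-MADM libraries held 214, 131, 188, 116 and 246 CPM, and the cKO-Eed-MADM libraries 97.8, 97.2, 113 and 138 CPM, so that 3 of 4 knockout libraries lay below all controls. In the 9 Eed-MADM libraries the lowest value was 154, the median 207 and the highest 237 CPM, above every cKO-Eed-MADM library. The log2 fold change of cKO-Eed-MADM was -0.68 ± 0.19 (SE; edgeR adjusted p = 0.0107) against control-MADM and -0.84 ± 0.18 (SE; edgeR adjusted p = 0.0013) against Eed-MADM. In one fit over the 3 later ages, control-MADM itself fell by 1.14 ± 0.24 (SE) on the log2 scale from E16.5 to P0 (edgeR adjusted p = 0.00111; 14.1% of 13926 genes called), and Wnt7b was the 1 member called there. Between E13.5 and E16.5 control-MADM had 0 members called (15.8% of genes; 2 members at an unadjusted p under 0.05, and 1, Wnt7a, by DESeq2). Whether the knockout's effect on Wnt7b differed between E16.5 and P0 did not pass the test (difference 0.97 ± 0.35, SE; edgeR adjusted p = 0.189). In that test of a change of effect, 0 members were called for cKO-Eed-MADM (1.17% of genes) and 0 for Eed-MADM (0.0215%), with 2 members at an unadjusted p under 0.05 in each and 0 by DESeq2.

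Earlier, Wnt7b did not separate the paradigms. At E13.5 its level in the 2 control-MADM libraries was 527 and 474 CPM, in the 2 Eed-MADM libraries 223 and 562 CPM, and in the 4 cKO-Eed-MADM libraries 559, 436, 408 and 565 CPM. The log2 fold change of the knockout was -0.02 ± 0.33 (SE; adjusted p = 0.991). At E12.5 means were 226 ± 74.1 CPM (SD, n = 5) in control-MADM and 134 ± 50.5 CPM (SD, n = 4) in cKO-Eed-MADM (log2 fold change -0.75 ± 0.34, SE; adjusted p = 0.667).

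In bulk samples fewer cells of a type and less RNA per cell cannot be told apart. The summed level of the 12 dorsal telencephalon markers was lower in the knockout at E16.5 and P0, as Wnt7b was: at E16.5 it was 4680 to 4920 CPM in control-MADM, 3650 to 5000 in Eed-MADM and 1970 to 2380 in cKO-Eed-MADM, and at P0 2490 to 3300, 2300 to 2940 and 1110 to 1240. The markers did not all move one way. Against control-MADM at E16.5, 6 were called lower in the knockout and 1, Sox2, higher (2.42% and 6.16% of all genes). At P0, 7 were called lower and 0 higher (10.0% and 14.2%). At E13.5, where Wnt7b did not separate the paradigms, the sum was 2540 to 3720 CPM in control-MADM and 3940 to 4960 in cKO-Eed-MADM. Microglia markers (8 genes, all with a read in each group at P0) moved the other way, with 9.7 to 43.0 CPM in control-MADM, 1.53 to 161 in Eed-MADM and 177 to 401 in cKO-Eed-MADM at P0. Interneuron markers (7 genes) stood at 244 to 491 CPM in cKO-Eed-MADM at E16.5 against 12.2 to 32.7 in control-MADM, but at 170 to 246 against 363 to 882 at P0. The part of these cell types in the ligand levels was not tested.

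Wnt7a, the close relative of Wnt7b, went the other way at E16.5. The control-MADM libraries held 13.6, 19.4 and 25 CPM, the Eed-MADM libraries 14.5, 7.05, 11.1, 15.8 and 28.4 CPM, and the cKO-Eed-MADM libraries 43.4, 34.9, 53.5 and 29.7 CPM. All 4 knockout libraries lay above every library of both other groups. The difference passed the test against Eed-MADM (by 1.39 ± 0.34 on the log2 scale, SE; edgeR adjusted p = 0.0132) and missed it against control-MADM (1.06 ± 0.39, SE; adjusted p = 0.111), where it was called by edgeR when these 2 groups alone were fitted (1.06; adjusted p = 0.0455). Without cKO-Eed-MADM replicate 3 the call against Eed-MADM was lost (1.22; adjusted p = 0.0611). At P0 the 3 groups overlapped, with means of 38.0 ± 6.11 CPM (SD, n = 5) in control-MADM, 37.1 ± 10.1 (SD, n = 9) in Eed-MADM and 48.3 ± 26.7 (SD, n = 4) in cKO-Eed-MADM. At E13.5 both controls were high, at 53.4 and 39.0 CPM, with 23.6 and 18.1 in Eed-MADM and 42.0, 14.8, 14.3 and 23.5 in cKO-Eed-MADM, so that the Eed-MADM libraries lay below the controls and the cKO-Eed-MADM libraries overlapped with them, and neither difference was called (adjusted p = 0.488 for cKO-Eed-MADM and 0.825 for Eed-MADM). The E12.5 values ranged from 0.0 to 38.7 CPM with no order among the groups.

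Wnt5a, the ligand best known for signalling without beta-catenin, was the 1 member called higher in the sparse mutant cells as well as in the global knockout. At P0 the control-MADM libraries held 9.83, 12.3, 16.3, 6.45 and 7.36 CPM. In the 9 Eed-MADM libraries the lowest value was 25.1, the median 32.8 and the highest 64.9 CPM, and the cKO-Eed-MADM libraries held 54.5, 36.2, 69.8 and 108 CPM. Every Eed-/- library lay above every control, and 2 of the 4 cKO-Eed-MADM libraries lay above all Eed-MADM libraries. Against control-MADM the mean was 3.36-fold higher in Eed-MADM (1.75 ± 0.28 on the log2 scale, SE; edgeR adjusted p = 0.000787) and 6.42-fold higher in cKO-Eed-MADM (2.68 ± 0.32, SE; edgeR adjusted p = 1.04e-06). The step between the 2 mutant paradigms was 0.93 ± 0.26 (SE; edgeR adjusted p = 0.0123), and it was no longer called without cKO-Eed-MADM replicate 4 (0.61; adjusted p = 0.155).

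The same order of the paradigms stood at E16.5 with smaller gaps. Control-MADM libraries held 18.2, 17.0 and 18.2 CPM, Eed-MADM libraries 24.6, 27.7, 35.6, 19.0 and 31.5 CPM, and cKO-Eed-MADM libraries 50.1, 70.4, 55.6 and 33.4 CPM. The 3 controls lay below all others. The rise was called in cKO-Eed-MADM (1.56 ± 0.29 on the log2 scale, SE; edgeR adjusted p = 0.00146) and not in Eed-MADM (0.64 ± 0.27, SE; adjusted p = 0.412), and the difference between the mutant paradigms was 0.92 ± 0.24 (SE; edgeR adjusted p = 0.0226). That difference lost its call without cKO-Eed-MADM replicate 2 or 3, or without Eed-MADM replicate 2 or 4, with an adjusted p of at most 0.114. At E13.5 the controls held 9.86 and 11.2 CPM, the Eed-MADM libraries 48.3 and 22.3 CPM, and the cKO-Eed-MADM libraries 51.4, 74.6, 19.3 and 50.2 CPM. These groups did not overlap with the controls either, which says little with 2 control libraries. Neither rise was called by edgeR (2.21 ± 0.54, SE, adjusted p = 0.127 in cKO-Eed-MADM; 1.74 ± 0.58, SE, adjusted p = 0.637 in Eed-MADM). In red and yellow cells of that age Wnt5a held 18.8 and 40.3 CPM in control-MADM and 76.3, 84.6, 44.9 and 65.3 CPM in cKO-Eed-MADM. That difference was not called either (1.17 ± 0.40, SE, edgeR adjusted p = 0.189). At E12.5 the means were 35.2 ± 18.5 CPM (SD, n = 5), 36.9 ± 32.8 (SD, n = 8) and 37.6 ± 13.7 (SD, n = 4) in controls, mosaics and knockouts.

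Meningeal and fibroblast markers, from cells that are also known to express Wnt5a, stood at 62.8 to 170 CPM in control-MADM, 48.6 to 179 in Eed-MADM and 174 to 445 in cKO-Eed-MADM at P0 (10 genes, all with a read). At E16.5 they stood at 8.27 to 21.1, 16 to 26.2 and 54.7 to 91.6 CPM in the same order, with Lum at 0 in control-MADM. The part of such cells in either mutant paradigm was not tested. The 13 cortical hem markers, which include no member, summed to 146 to 207, 178 to 311 and 412 to 779 CPM at P0 in controls, mosaics and knockouts, and to 64.5 to 95.6, 72.6 to 158 and 103 to 234 CPM at E16.5, with Bmp4 and Msx2 at 0 in the E16.5 controls. They did not all move one way. Against control-MADM at E16.5, Rspo2, Dkk3 and Bmp7 were called higher in the knockout and Rspo3 lower, of 9 tested (6.16% and 2.42% of all genes). At P0, 8 of 10 tested were called higher and 0 lower (14.2% and 10.0% of all genes).

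Wnt3, a ligand of the beta-catenin branch, rose in the global knockout at P0. The control-MADM libraries held 2.17, 0.0, 2.33, 9.03 and 2.01 CPM, and the cKO-Eed-MADM libraries 17.6, 9.61, 19.3 and 25.3 CPM. In Eed-MADM the lowest value was 2.56, the median 5.3 and the highest 10.2 CPM. The knockout and control libraries did not overlap, by a narrow margin between 9.03 and 9.61 CPM. The log2 fold change was 2.55 ± 0.63 (SE; edgeR adjusted p = 0.00426) against control-MADM and 1.58 ± 0.52 (SE; edgeR adjusted p = 0.033) against Eed-MADM. Eed-MADM against control-MADM was not called (0.98 ± 0.55, SE; adjusted p = 0.362), and the call against Eed-MADM was lost without cKO-Eed-MADM replicate 1, 3 or 4.

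At E16.5 Wnt3 was read in all 4 knockout libraries and was low in 1 of them. They held 0.201, 6.48, 4.68 and 13.2 CPM, against 1.1, 0.0 and 0.207 CPM in control-MADM and 3.99, 0.682, 0.784, 3.17 and 0.0 CPM in Eed-MADM. The difference from control-MADM was not called (log2 fold change 3.59 ± 1.38, SE; edgeR adjusted p = 0.131). The low library is replicate 1, the one with the highest Wnt7b, and it had 0.402 CPM of Wnt10a where the others had 8.3, 4.68 and 13.8. At E13.5 and E12.5 Wnt3 ranged from 0.0 to 7.19 and from 0.0 to 18.1 CPM, and each pair of groups overlapped.

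Wnt9a, Wnt10a, Wnt6 and Wnt1 were near or at 0 in the green control cells from E16.5 on, and reads of them were found in both mutant paradigms at P0. For Wnt9a at P0 the control-MADM libraries held 1, 1, 0, 0 and 2 reads (at most 0.335 CPM), and the cKO-Eed-MADM libraries 8, 14, 33 and 34 reads (1.45, 5.18, 6.44 and 5.98 CPM). In the 9 Eed-MADM libraries the lowest level was 0.0, the median 0.786 and the highest 2.18 CPM, with 39 reads in 8 libraries. All 4 knockout libraries lay above all controls, and the mean was 35.1-fold higher. At E16.5 the 3 controls held no read and the knockout libraries 4, 5, 11 and 27, at least 11.9-fold higher against a floor of 3 reads over the control group. Wnt9a passed the minimum count at neither age, and 1 of the 4 red and yellow control libraries at P0 held 42 reads of it (9.44 CPM). At E16.5 the red and yellow control libraries held 8, 3 and 5 reads of it (2.39, 0.543 and 1.47 CPM) and the red knockout libraries 0.376 and 1.73 CPM, so that these groups overlapped.

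Wnt10a reads at E16.5 numbered 2, 50, 25 and 70 in cKO-Eed-MADM, 0, 0 and 6 in control-MADM and 0 in all 5 Eed-MADM libraries. Against Eed-MADM this is at least 60.4-fold higher and was called (edgeR adjusted p = 0.00509), while the difference from control-MADM was not (log2 fold change 3.99 ± 1.44, SE; adjusted p = 0.115). Wnt10a passed the count minimum there only through its knockout reads, so the call is no independent support for a rise. At P0 only 2 of the 4 knockout libraries held Wnt10a, with 26 and 38 reads, against 2 reads over the 5 controls, a ratio of 47.6 with an exact 95% counting interval of 12.6 to 401 that covers counting error only. Eed-MADM held 39 reads of it at P0, in 5 of 9 libraries, of which 4 lay above all controls (ratio 12.4, interval 3.22 to 106). Wnt6, its neighbour on chromosome 1, was read in 2 of 4 knockout libraries at E16.5 (13 and 34 reads) and in 2 of 4 at P0 (7 and 24 reads). Among the controls it was read in none at E16.5 and in 1 at P0 (8 reads), and in Eed-MADM in 6 of 9 at P0 (33 reads). The libraries with Wnt6 reads were replicates 1 and 4 at E16.5 and replicates 3 and 4 at P0. Those with the Wnt10a reads at P0 were also replicates 3 and 4, whereas at E16.5 replicate 1 held 2 reads of Wnt10a and 13 of Wnt6. The red knockout libraries at E16.5 held 0 and 11 reads of Wnt10a and none of Wnt6. At P0 the red ones held 0 and 0 reads of Wnt10a and 0 and 12 of Wnt6, and the yellow one 30 and 3. Red and yellow controls held none at these ages. A yellow Eed+/- library of Eed-MADM held 35 Wnt6 reads at P0 (6.8 CPM), above every green library of that age.

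Wnt1, which marks the midbrain and dorsal midline and is known as an inducer of proliferation there, stayed near 0. It was read in 2 of 4 knockout libraries at P0 (3 and 4 reads), in 1 of 4 at E16.5 (3 reads), in 1 of 9 Eed-MADM libraries at P0 (2 reads), and in none of the 8 controls at these ages. A total of 7 reads against 0 at P0 is at least 4.46-fold over the floor. With no minimum count, edgeR called 6 members at E16.5 in cKO-Eed-MADM against control-MADM (5.42% of 29304 genes), namely Wnt5a, Wnt7b, Wnt9a, Wnt3, Wnt10a and Wnt6. That share also counts genes with next to no reads. Without the minimum, 250 genes were called at E13.5 in this comparison, where 5 were called with it. Wnt6 was called from reads in 2 of 4 knockout libraries, with none in the controls. At P0 the fit without a minimum called 5 members (11.1% of 32993 genes), namely Wnt5a, Wnt9a, Wnt3, Wnt7b and Wnt10a, with an edgeR adjusted p of 0.000992 for Wnt9a and 0.0239 for Wnt10a.

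Wnt8b and Wnt3a, ligands of the cortical hem, had their highest green levels at E12.5 and varied there between libraries of one paradigm more than between paradigms. Wnt8b was high at that age, but Wnt3a was low, with medians of 5.63, 9.2 and 1.54 CPM in controls, mosaics and knockouts. Wnt8b stood at 20.9, 43.9, 102, 51.8 and 319 CPM in control-MADM and at 27.7, 88.5, 110 and 75.9 CPM in cKO-Eed-MADM. In the 8 Eed-MADM libraries the lowest value was 38.4, the median 114 and the highest 132 CPM. The groups overlapped, and the difference of cKO-Eed-MADM from control-MADM was not called (log2 fold change -0.53 ± 0.61, SE; adjusted p = 0.931). By E13.5 Wnt8b lay between 6.96 and 11.9 CPM in all 8 green libraries. At P0 it was under the minimum count, with 0.0, 1.06, 1.0, 0.86 and 0.0 CPM in control-MADM and 1.27, 1.48, 4.1 and 7.04 CPM in cKO-Eed-MADM, which did not overlap, by a narrow margin between 1.06 and 1.27 CPM. In Eed-MADM it was read in 4 of 9 libraries, from 0.0 to 5.8 CPM, and overlapped with both. In red and yellow cells the groups overlapped, with up to 2.7 CPM in control-MADM and 0.0, 0.612 and 7.59 CPM in cKO-Eed-MADM.

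Wnt3a ranged from 0.0 to 21.3 CPM in control-MADM, 0.0 to 36.6 in Eed-MADM and 0.0 to 9.4 in cKO-Eed-MADM at E12.5. At P0 it was read in 1 of the 18 green libraries, a cKO-Eed-MADM library with 2 reads. Wnt9a at E12.5 held 5.53, 15.3, 7.75 and 24.8 CPM in the knockout libraries and 1.67, 0.0, 1.95, 4.12 and 2.42 CPM in the controls. It was picked after its values were seen and was not called (log2 fold change 2.61 ± 1.14, SE; edgeR adjusted p = 0.636), as 0.0% of the 18100 genes were. The summed hem markers at E12.5 were 161 to 555 CPM in control-MADM, 95.1 to 644 in Eed-MADM and 233 to 941 in cKO-Eed-MADM. Choroid plexus markers reached 35500 CPM in one cKO-Eed-MADM library there, against at most 109 in the other paradigms, and their part in the levels was not tested.

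Red and yellow libraries give a second look at the global knockout, because there the red and yellow cells were Eed-/- as well, whereas in control-MADM they were Eed+/+. Of 48 such libraries 37 passed the same read limits, and the color was a term in the fit where both paradigms had both colors. At E16.5 Wnt5a rose again: the 3 control-MADM libraries (2 red, 1 yellow) held 15.8, 21.8 and 6.29 CPM and the 2 red cKO-Eed-MADM libraries 61.6 and 61.0 CPM. Its log2 fold change was 2.06 ± 0.40 (SE; edgeR adjusted p = 0.0145), and it was the 1 member called of 4 tested (5.41% of 13076 genes). Without either knockout library the call was lost (adjusted p = 0.196 and 0.208), and with the red libraries alone, chosen after seeing the data, it was 1.72 (adjusted p = 0.00139). Wnt7b held 355, 358 and 436 CPM in these controls and 261 and 111 CPM in the knockout, which was not called (-1.04 ± 0.31, SE; adjusted p = 0.0917). The 2 knockout libraries repeated the split of the green ones, since red replicate 1, like green replicate 1, had the higher Wnt7b and next to no Wnt3 (0.188 CPM, against 4.5 CPM in red replicate 2). Whether same-numbered libraries came from the same pool of cortices is not stated, and the fits of red and yellow cells at each age took them as independent.

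At E13.5, 2 of 7 members tested were called in red and yellow cells (1.9% of 13187 genes), both lower in the knockout. The controls were red and yellow replicate 1, and the knockouts red and yellow replicates 1 and 2. If the colors of one number came from one pool, these libraries were not independent and the p-values overstate the evidence. Wnt8b held 67.4 and 72.4 CPM in the 2 control-MADM libraries and 7.98, 3.17, 0.0 and 2.87 CPM in the 4 cKO-Eed-MADM libraries (log2 fold change -4.56 ± 0.78, SE; edgeR adjusted p = 0.0289). Wnt7a held 58.3 and 42.3 CPM against 23, 22.8, 16.2 and 17.8 CPM (-1.33 ± 0.26, SE; edgeR adjusted p = 0.0439). Both calls were lost without any 1 of 5 of the 6 libraries, and the green cells of the same age did not show the Wnt8b difference, with 11.9 and 9.86 CPM in control-MADM and 7.02 to 11.4 in cKO-Eed-MADM. At P0, 0 of 5 members tested were called (0.00715% of 13985 genes; 1 member, Wnt5a, at an unadjusted p under 0.05; 0 by DESeq2). Wnt5a stood at 8.99, 41.8, 7.71 and 9.5 CPM in the 4 control-MADM libraries and 86.8, 64.5 and 33.5 CPM in the 3 cKO-Eed-MADM libraries. Red knockout replicate 1, which held 0.879 CPM of Wnt7b against 114 and 124 in the other knockout libraries, was 1 of the 2 with the fewest genes detected, and without both of these still 0 members were called. In the Eed-MADM brains the red Eed+/+ and yellow Eed+/- cells at P0 held 11.1 and 16.3 CPM and 7.52 and 24.1 CPM of Wnt5a, where the lowest green Eed-/- library held 25.1 CPM. All 4 lay below all 9 green libraries, on scales set separately for the colors, and this was not tested. At E13.5 they overlapped, with 28.2 and 25.9 CPM in red and 41.8 and 45.5 CPM in yellow cells against 48.3 and 22.3 CPM in green.

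**Figure D4:**
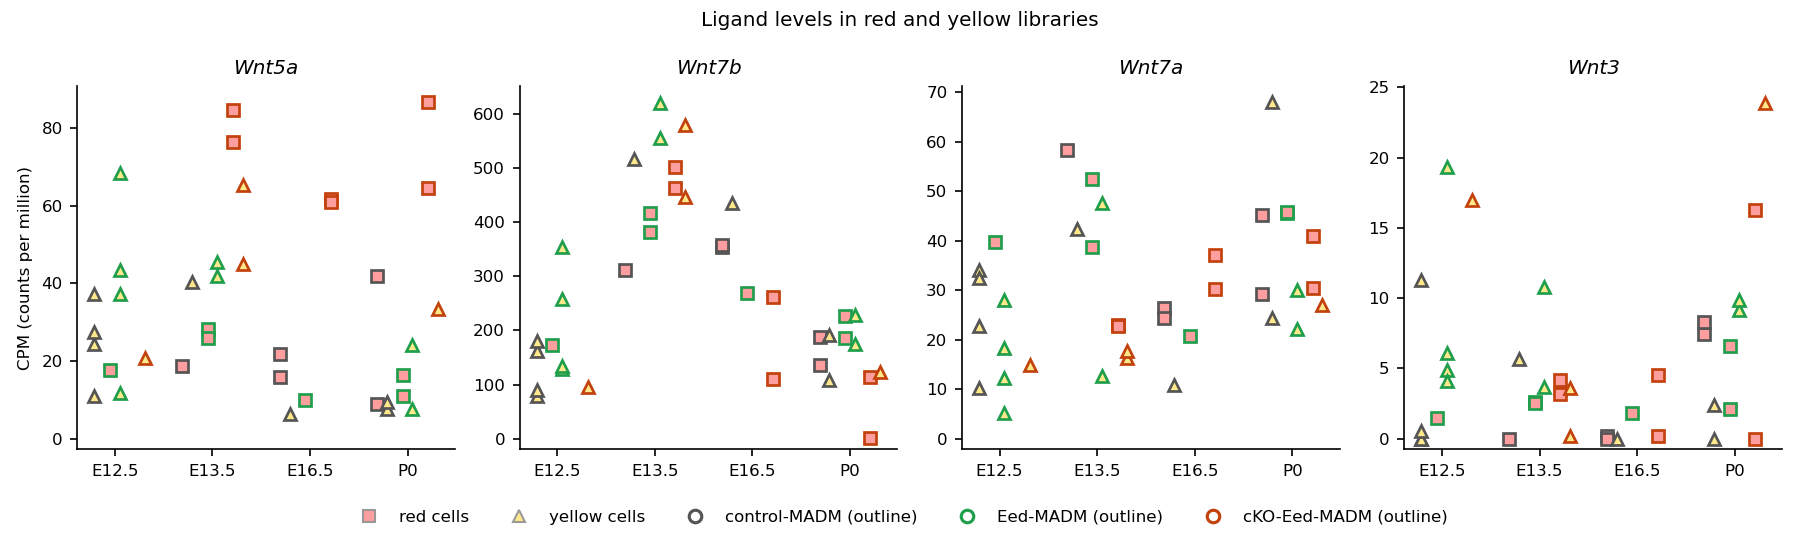
Levels of Wnt5a, Wnt7b, Wnt7a and Wnt3 in the 37 red (squares) and yellow (triangles) libraries that passed the read limits (y axes, CPM) by age (x axes); the outline gives the paradigm and each symbol is 1 library. At E16.5 both cKO-Eed-MADM libraries held about 61 CPM of Wnt5a, where the 3 control-MADM libraries held 6.29 to 21.8.

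The other genes of the pathway were read in lists by role, beside 14.2% of all genes called higher and 10.0% called lower in the knockout at P0, and 6.16% and 2.42% at E16.5. Among the other 9 ligands, 2 were tested at P0 and Wnt4 rose, from 0.843 ± 0.565 CPM (SD, n = 5) in control-MADM to 13.1 ± 2.61 CPM (SD, n = 4) in cKO-Eed-MADM (log2 fold change 3.94 ± 0.78, SE; edgeR adjusted p = 0.000558). Wnt4 passed the count minimum only through its knockout reads (248, against 23 in control-MADM and 80 in Eed-MADM), so the filter favored a rise. At E16.5 the 1 tested was not called. Of the 6 genes of ligand secretion and processing, 5 were tested and 2 rose in the knockout at both ages, namely Wls, the carrier of acylated WNT, and Notum, which removes the acyl chain from the serine shown above. Wls rose from 9.63 ± 5.12 CPM (SD, n = 5) to 119 ± 28.3 CPM (SD, n = 4) at P0 (3.62 ± 0.36, SE; edgeR adjusted p = 1.1e-07). Notum rose from 3.84 ± 3.13 CPM (SD, n = 5) to 50.7 ± 34.2 CPM (SD, n = 4) at P0 (3.73 ± 0.55, SE; edgeR adjusted p = 2.41e-05). In Eed-MADM neither was called at either age.

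Of the receptors and coreceptors (19 names, 18 found in the annotation), 16 were tested at P0 and 8 rose in the knockout while 0 fell, with a list median of 0.93 on the log2 scale beside -0.01 over all genes. Fzd1 (log2 fold change 1.55 ± 0.24, SE), Ror2 (3.41 ± 0.53, SE) and Fzd10 (4.08 ± 0.69, SE) had the lowest adjusted p. Ror2, a receptor of Wnt5a, was also the 1 receptor called in Eed-MADM at P0 (2.83 ± 0.48, SE; edgeR adjusted p = 0.00198), from 1.53 ± 1.28 CPM (SD, n = 5) in control-MADM to 11.2 ± 4.4 CPM (SD, n = 9), without overlap. At E16.5 none of the 15 tested was called in either comparison with control-MADM. Of 13 secreted antagonists, 9 were tested at P0. Of these, 4 rose in the knockout, Wif1 (5.11 ± 0.98, SE), Sfrp4, Dkk3 and Frzb, and Sfrp1 fell, from 523 ± 92.5 CPM (SD, n = 5) to 278 ± 79.6 CPM (SD, n = 4). R-spondins, which amplify WNT signals, and their receptors numbered 9, of which 8 were tested at P0 and 6 rose, led by Lgr4, Znrf3 and Lgr5. At E16.5, 7 were tested, of which Rspo2 and Lgr4 rose and Rspo3 fell.

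Inside the cell the list of 24 beta-catenin pathway components went both ways at P0, with 4 higher, 6 lower and 14 not called, beside 14.2% and 10.0% of all genes. Lef1, a DNA-binding partner of beta-catenin, rose from 4.16 ± 2.76 CPM (SD, n = 5) to 44.8 ± 7.7 CPM (SD, n = 4) in the knockout and was called in Eed-MADM too (17.1 ± 6.79 CPM, SD, n = 9; edgeR adjusted p = 0.00405). Apc2 and Tle1 fell by 0.82 and 0.85 on the log2 scale, and Ctnnb1, which encodes beta-catenin, was among the genes called lower. Of 21 names of known transcriptional targets, 20 were found and 15 tested at P0. Of these, 12 rose in the knockout and 1, Sp8, fell, beside the 24.2% of all genes called. The list median was 1.69 beside -0.01 over all genes. Ccnd1, a G1 cyclin that is a target of many signals, rose from 76.4 ± 16.8 CPM (SD, n = 5) to 310 ± 83.1 CPM (SD, n = 4). Axin2, Nkd1, Apcdd1, Tnfrsf19, Sp5, Rnf43 and Znrf3 were among the others, and Lef1, Notum, Lgr5, Rnf43 and Znrf3 also stand in other lists here. In Eed-MADM, 1 of the 15 targets was called, Lef1. At E16.5, 5 of 14 targets tested rose and 0 fell in the knockout, and 0 were called in Eed-MADM. Of 11 planar polarity components, 4 rose at P0, among them Nfatc1 and Prickle2, and 2 fell, Celsr3 and Celsr2, with a list median of -0.02 beside -0.01 over all genes.

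**Figure D5:**
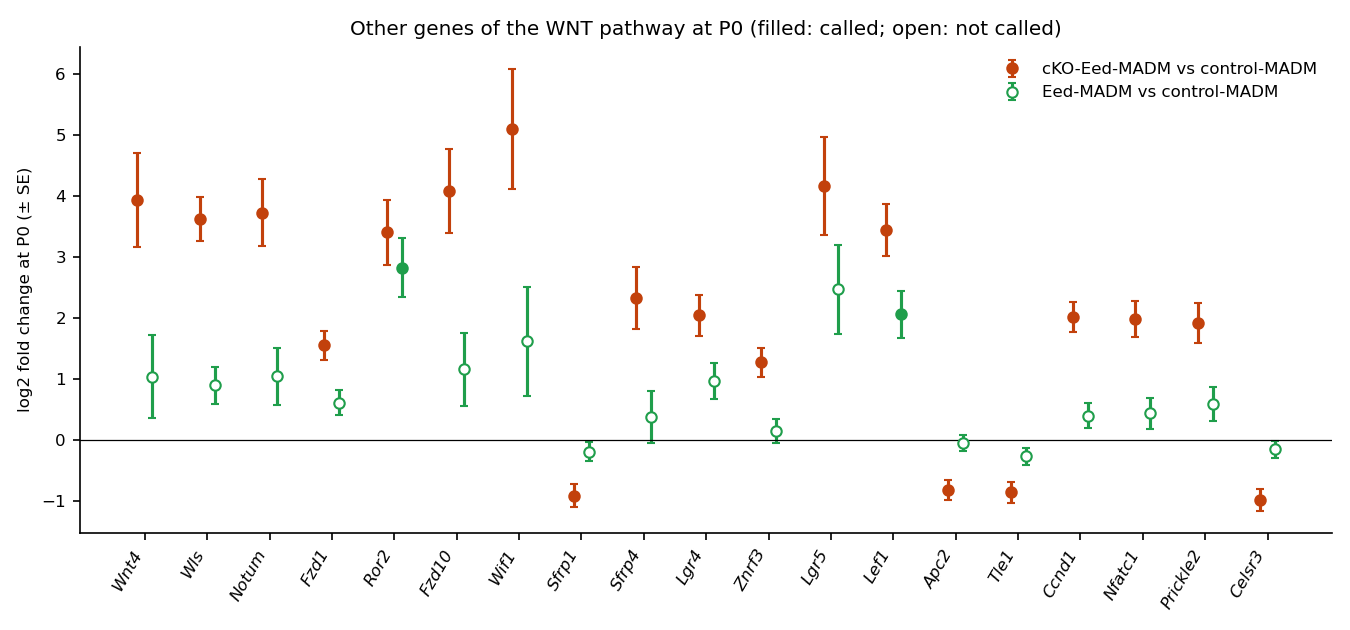
Log2 fold changes with their SE (y axis) at P0 of the up to 3 genes with the lowest adjusted p in the knockout from each of the 8 pathway lists (x axis), for cKO-Eed-MADM and Eed-MADM, each against control-MADM; filled points were called. Wls rose by 3.62 and Lef1 by 3.45 in cKO-Eed-MADM, and Ror2 and Lef1 were called in Eed-MADM as well, at 2.83 and 2.06.

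The genes whose pattern over the 12 green groups was most like that of each ligand called at P0 were ranked by Pearson's r of group means of log2(CPM + 1), over 16169 genes with a mean of at least 1 CPM. The 12 means share libraries, ages and scaling, and the values are a description. For Wnt7b these were Tle3 (r = 0.967), Art5 (0.937) and Dgcr6 (0.926). Wnt5a had Ripk4 (0.897), Gprc5c (0.881) and Bves (0.872), and Wnt3 had Islr (0.949), Mertk (0.946) and Col23a1 (0.939).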

How the data were processed

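RNA of sorted cells was sequenced in 116 libraries, each from pooled neocortex. The authors aligned reads to mm10 with STAR and deposited, per sample, raw gene counts, unstranded and for each strand; no source used here names the annotation release. The unstranded counts were used. Rows that name no gene held 13.4 to 40.1% of reads in the green libraries used and were left out. Of 53379 gene IDs 53274 matched GENCODE on GRCm38. Groups came from the titles. The 3 paradigms of an age were fitted together with edgeR 4.0.16 (R 4.3.3; TMM, robust quasi-likelihood test, Benjamini-Hochberg 0.05), and E13.5, E16.5 and P0 jointly for changes with age. The script was tested on simulated counts. Alternatives were DESeq2 1.42.0, other scaling, filters, libraries, strand columns, a replicate block and leaving out 1 library at a time. No Eed-MADM library was left out at E12.5 or P0, where that group was largest. Named genes were all members, up to 3 genes per pathway list with the lowest adjusted p among those called in cKO-Eed-MADM at P0, 3 genes most like each member called there, and Eed; other genes named in a count were chosen after their values were seen. The members and lists were chosen with earlier results of these data known. Depth sets a floor, taken as 3 reads over a group. Where the libraries of some groups are said not to overlap, the share of all genes that do the same is not given. P-values measure the spread between these libraries.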

Additional observations from a re-analysis of the deposited data

Results flagged for a closer look

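In 7 of 48 groups of 4 to 10 green libraries, 1 library lay far from the others by Dixon's criterion; chance flags about 1 in 20 groups. For Wnt7b, cKO-Eed-MADM replicate 1 at E16.5 held 216 CPM, with the next at 93.6, and Eed-MADM replicate 5 at E16.5 held 462 CPM, with the next at 348. For Wnt5a, Eed-MADM replicate 5 at P0 held 64.9 CPM, with the next at 38.7, and Eed-MADM replicate 7 at E12.5 held 112 CPM, with the next at 42.3. For Wnt3, control-MADM replicate 5 at P0 held 9.03 CPM, with the next at 2.33. At E12.5 control-MADM replicate 5 held 319 CPM of Wnt8b, with the next at 102, and Eed-MADM replicate 6 held 41.0 CPM of Wnt9a, with the next at 9.38. The causes were not tested.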

How the results depend on the processing

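Wnt7b and Wnt5a at E16.5 and Wnt7b, Wnt5a and Wnt3 at P0 in cKO-Eed-MADM against control-MADM, and Wnt5a at P0 in Eed-MADM against control-MADM, kept their direction and call under each alternative run. None of these runs left out an Eed-MADM library at P0, so replicate 5, flagged above for Wnt5a, was always kept. The number of members called in cKO-Eed-MADM against control-MADM went from 0 to 1 at E13.5 with DESeq2 and with no filter, from 2 to 4 (DESeq2) and 6 (no filter) at E16.5, and from 3 to 5 with no filter at P0. In control-MADM from E13.5 to E16.5 it went from 0 to 1 with DESeq2. In red and yellow cells it went from 2 to 4 at E13.5 and from 1 to 2 at E16.5 with DESeq2, which called 951 and 1033 of all genes where edgeR called 251 and 707, and over libraries left out 1 at a time from 0 to 2 at E13.5 and from 0 to 1 at E16.5. Against Eed-MADM the knockout's count ranged over left-out libraries from 2 to 4 at E16.5 and from 1 to 3 at P0, and with the replicate block it was 1 at P0, where Wnt5a and Wnt3 lost their calls. At P0 the libraries left out were those of control-MADM and cKO-Eed-MADM only. Same-numbered libraries deviated together (correlation over 0.1) in 3 of 12 pairs at P0 and 3 of 11 at E12.5, so the numbers were not taken as pairs. Calls of low members depend on the count minimum. Wnt10a at E13.5 stood at -2.86 (adjusted p = 0.437) in green and 7.34 (adjusted p = 0.109) in red and yellow cells, neither called by edgeR. The red and yellow control libraries held no read of it there, and the knockout libraries 20, 4, 25 and 35 reads. It passed the count minimum in these cells only through its knockout reads, so the filter favored a rise and the size of 7.34 has no firm base. Wnt10a was among the members that DESeq2 added in these cells. Wnt7a at E16.5 against control-MADM was called with these 2 groups alone (adjusted p = 0.0455).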
